A study of Mus musculus with 8 samples.

Results

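Transcripts of 45 mitosis and spindle genes were followed in immortalized granulocyte-macrophage progenitors (iGMPs) of the mouse. The 45 genes were chosen by name, from a list written for cell division with earlier results of these data known. All 45 were found among the 34199 genes counted. iGMPs of C57Bl/6 origin (Lys-GFP-ER-HoxA9 cells) carry HOXA9 fused to the estrogen receptor, whose activity depends on estradiol in the medium, and a GFP reporter under the lysozyme promoter. They grow as progenitors in stem cell factor and estradiol, and differentiate into neutrophils when estradiol is removed. Bulk RNA-seq was available for 4 groups of 2 libraries. Uninduced cells, labelled t0, stand for 0 h and had estradiol at 150 ng/ml. To make CAF-1 OFF cells, IPTG at 500 micromolar was given for 48 h, with estradiol kept at 150 ng/ml. IPTG induces an shRNA against Chaf1b, a subunit of the histone chaperone CAF-1. IPTG control cells had IPTG at 500 micromolar for 48 h, also with estradiol at 150 ng/ml. Their labels name no vector, and the methods name a stuffer vector as the control of IPTG induction. HOXA9 OFF cells (labelled Hoxa9 OFF) were washed and kept without estradiol for 48 h. All 8 libraries share the HOXA9 fusion and the reporter. The titles of the uninduced and HOXA9 OFF libraries name no shRNA vector either. A difference of line between groups, if there was any, cannot be told apart from the treatment. The study describes its shRNA lines as clonal and its RNA-seq at 48 h as covering a pair of independent sub-clones, but the labels do not tie a library or a replicate number to a sub-clone, culture or day. P-values therefore measure the spread between libraries, whatever its source.

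A cell enters mitosis when cyclin-bound CDK1 is activated by CDC25 phosphatases, and Polo-like and Aurora kinases then build the spindle. The spindle assembly checkpoint holds the anaphase-promoting complex in check until every kinetochore is attached to microtubules, after which CDC20 and later FZR1 direct the destruction of cyclins and other mitotic proteins. Transcripts of these genes accumulate in G2 and mitosis of cycling cells, and progenitors of the myeloid lineage stop dividing before neutrophil maturation is complete.

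Most members share letters in their promoters that are known from G2 and mitosis genes, and these are shown first. The CHR (cell cycle genes homology region, here TTTGAA or TTCGAA) is bound by MuvB complexes, and the box CCAAT is bound by NF-Y. Windows from 250 bases before to 50 bases after a RefSeq start site in GRCm38.p6 were searched on both strands. RefSeq gave 41 windows for 38 of the 45 members. Ccna2, Cdc25c, Aurkb, Incenp, Kif20a, Smc4 and Tpx2 had no window in the table. A CHR was present in 33 of the 41 windows (80.5%) and CCAAT in 33 (80.5%), against 19.2% and 37.4% of all 32851 promoter windows. Both were present in 29 windows (70.7%), against 7.53% of all windows. The letters of the 2 motifs overlapped in 1 of the members' windows. In the 29 windows with both, the nearest CHR and CCAAT started a median of 26 bases apart, with a range of 5 to 81 bases. The following stretches lie upstream of the start site and hold both motifs, in capitals, with 10 bases on either side where they lie before any coding transcript of GENCODE vM1. They belong to the 6 members with the lowest log2 fold changes in HOXA9 OFF cells among those with such a stretch, and are written 5′ to 3′ on the gene's strand.
Cdk1 (chr10:69352946-69353130, minus strand): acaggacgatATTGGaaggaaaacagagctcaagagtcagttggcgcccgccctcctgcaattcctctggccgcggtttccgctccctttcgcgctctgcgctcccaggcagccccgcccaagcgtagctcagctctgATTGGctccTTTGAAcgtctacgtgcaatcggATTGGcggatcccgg
Cdc20 (chr4:118437353-118437406, minus strand): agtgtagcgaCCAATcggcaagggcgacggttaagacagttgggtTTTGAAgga
Ect2 (chr3:27153919-27154002, minus strand): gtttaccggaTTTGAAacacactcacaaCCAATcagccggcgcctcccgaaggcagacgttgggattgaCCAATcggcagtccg
Ckap2 (chr8:22185825-22185930, minus strand): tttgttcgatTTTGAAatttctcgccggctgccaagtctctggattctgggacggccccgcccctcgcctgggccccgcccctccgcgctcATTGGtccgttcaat
Smc2 (chr4:52439066-52439116, plus strand): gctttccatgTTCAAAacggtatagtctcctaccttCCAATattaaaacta
Top2a (chr11:99024197-99024426, minus strand): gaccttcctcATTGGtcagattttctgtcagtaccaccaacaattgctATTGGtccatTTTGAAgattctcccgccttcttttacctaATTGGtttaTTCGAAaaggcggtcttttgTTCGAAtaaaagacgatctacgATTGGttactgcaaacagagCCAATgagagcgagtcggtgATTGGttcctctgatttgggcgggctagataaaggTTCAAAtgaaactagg

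In these stretches Cdk1, Cdc20, Ect2, Ckap2 and Smc2 each held 1 CHR, and Top2a held 4 CHRs and 6 CCAAT boxes. A CHR was in 7 of 10 windows of the members called lower in HOXA9 OFF cells and in 26 of 31 windows of the members not called there. Nek2, Mad2l1 and Ccnb1, which had the 3 lowest log2 fold changes in HOXA9 OFF cells, held no CHR of these letters in the window. The DNA replication genes, a list of 38, had a CHR in 6 of 34 windows (17.7%) and CCAAT in 21 (61.8%). Of 87 windows of other mitotic genes, 40.2% had a CHR and 57.5% CCAAT, and of 20 windows of the genes for their transcription factors, 7 had a CHR and 9 CCAAT. These are matches of letters, given as a description.

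**Figure D1:**
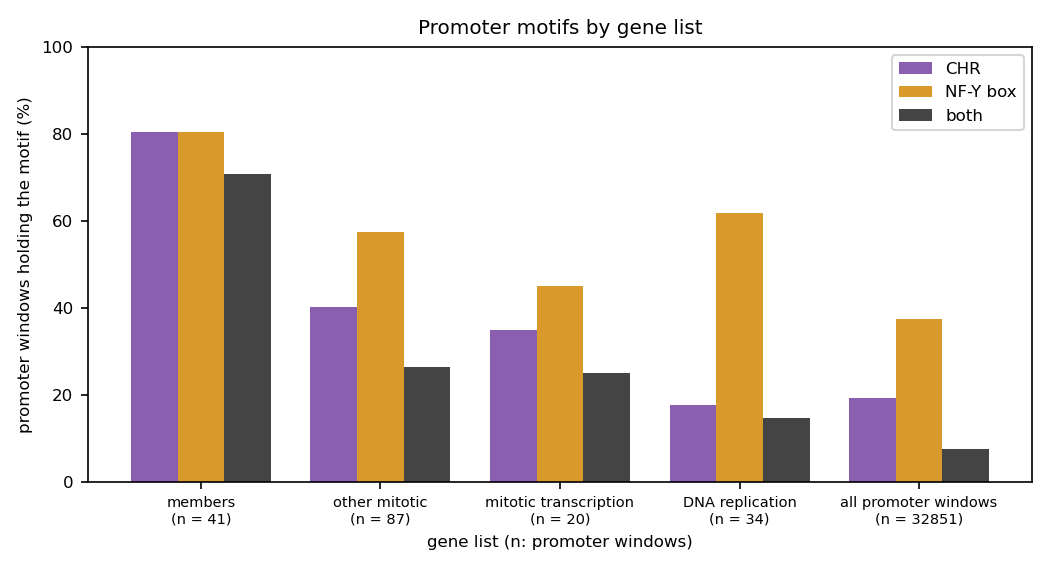
Share of RefSeq promoter windows (vertical axis, percent) that hold a CHR, an NF-Y box (CCAAT) or both, for each gene list and for all 32851 windows. The members stand at 80.5% for each motif and at 70.7% for both, and the DNA replication genes at 17.7% for the CHR and 61.8% for the NF-Y box.

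The counts assigned to genes ranged from 14044284 to 22423837 per library. Of all genes, 13080 passed the filter on low counts, and all 45 members passed it, with at least 365 counts in every library. Levels are given in CPM (counts scaled to a common, TMM-adjusted library size). A gene was called where the FDR of the edgeR quasi-likelihood test was under 0.05 and the change reached 1.5-fold. Chaf1b, the target of the shRNA, was at 96.8 and 100.3 CPM in uninduced, 95.1 and 102 CPM in IPTG control, 18.7 and 9.72 CPM in CAF-1 OFF and 48.3 and 41.0 CPM in HOXA9 OFF cells, so both CAF-1 OFF libraries were the lowest, as their label says, and HOXA9 OFF was the next lowest (-1.14, FDR 0.00574). Hoxa9 transcripts were at 234 and 235 CPM in uninduced, 294 and 236 CPM in IPTG control, 261 and 251 CPM in CAF-1 OFF and 481 and 449.7 CPM in HOXA9 OFF cells, and were called higher in HOXA9 OFF cells (0.99, FDR 0.000320); OFF refers to the activity of the protein and not to its transcript, so this level is no check of that label. IPTG control replicate 1 stood apart in reads outside genes, at 14.6% of all reads counted against 5.30% to 7.79% in the other libraries. Of 9 progenitor markers, Kit was at 638 and 613 CPM in uninduced, 678 and 576 CPM in IPTG control, 781 and 684 CPM in CAF-1 OFF and 198 and 167 CPM in HOXA9 OFF cells, and Cd34 at 1872 and 1711 CPM in uninduced, 1796 and 1647 CPM in IPTG control, 2165 and 1615 CPM in CAF-1 OFF and 251 and 242 CPM in HOXA9 OFF cells. In HOXA9 OFF cells 3 of the 9 were called lower (Kit -1.78, Cd34 -2.86, Ctsg -1.90) and 2 higher (Fcgr3 2.68, Csf3r 2.83), and their summed level was lower in both HOXA9 OFF libraries than in the other 6. In CAF-1 OFF cells 0 of the 9 were called lower and 3 higher (Elane 1.61, Fcgr3 1.18, Csf3r 0.69). Mature neutrophil markers summed to 94.3 to 98.4 CPM in the 4 uninduced and IPTG control libraries, 1273 and 2211 CPM in CAF-1 OFF and 9111 and 6192 CPM in HOXA9 OFF libraries, and 6 of 8 were called higher in CAF-1 OFF and 8 of 8 in HOXA9 OFF cells. Most of the sum in CAF-1 OFF libraries was Mmp8, at 1091 and 1937 CPM. Mmp8 was the 1 marker of the 8 called higher there than in HOXA9 OFF cells (1.70). The other 7 were called lower there than in HOXA9 OFF cells, with Ltf at 0.474 and 0.523 CPM. Macrophage markers (6 genes, 5 tested) summed to 27.1 to 54.6 CPM in uninduced and IPTG control, 50.5 and 79.4 CPM in CAF-1 OFF and 1008 and 1653 CPM in HOXA9 OFF libraries. C1qa was at 0 in all libraries but HOXA9 OFF replicate 2. Erythroid and megakaryocytic markers (8 genes, 5 tested) summed to 25.2 to 27.9 CPM in uninduced and IPTG control, 180.1 and 213.7 CPM in CAF-1 OFF and 138 and 127 CPM in HOXA9 OFF libraries, with Gp1bb at 0 in all. Most of that sum was Itga2b in HOXA9 OFF libraries (114 and 93.3 CPM). In CAF-1 OFF libraries most of it was Itga2b (109 and 74.6 CPM) and Pf4 (55.8 and 124 CPM). Of the lymphoid markers (6 genes, 3 tested), summed to 90.8 to 136 CPM in all groups but HOXA9 OFF and to 4.99 and 9.47 CPM there, most of the sum outside HOXA9 OFF was Ebf1, and Cd3e and Cd8a were at 0 in all. Ebf1 was called lower in HOXA9 OFF cells (-6.38), while Cd79a was called higher there (1.46) and in CAF-1 OFF cells (2.82). Non-haematopoietic markers (5 genes, 3 tested) summed to 229.7 to 254 CPM in uninduced and IPTG control, 349 and 390.1 CPM in CAF-1 OFF and 373 and 309 CPM in HOXA9 OFF libraries, nearly all of it Pecam1, which is also expressed by leukocytes. Pecam1 was called higher in CAF-1 OFF cells (0.61, FDR 0.0169), as was Col1a1 there (3.5) and in HOXA9 OFF cells (3.59), at 2.77 CPM or less in every library. Epcam and Krt18 were at 0.18 CPM or less. Ccna2, Cdc25b, Cdc25c, Cdca8, Bub3, Cdc20, Fzr1, Ube2c, Kif20a, Kif4, Prc1, Ect2, Top2a and Smc2 overlap an annotated gene on the opposite strand, and whether the counting used strand is not stated, so reads of the 2 partners may not be told apart. The part of these markers in the results below was not tested, and in bulk samples fewer cells of a type and less RNA per cell cannot be told apart.

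Setting HOXA9 OFF beside uninduced cells addresses which transcripts of the division machinery change as progenitors start to become neutrophils. Of the 45 members, 12 fell and 0 rose. The 12 were Cdk1, Ccnb1, Ccna2, Cdc25c, Aurka, Nek2, Aurkb, Mad2l1, Cdc20, Kif2c, Ckap2 and Ect2, and their falls were modest, with log2 fold changes from -0.60 in Aurkb to -0.94 in Nek2. The median over all 45 members was -0.35, and that over all 13080 genes was 0.01. Many genes outside the list also changed in this comparison: 22.1% of all genes tested were called lower and 25.2% higher. The 12 members called lower (26.7%) were thus near the share of all genes, and 0 of 45 members called higher stood against 25.2% of all genes. DESeq2 called 11 members lower and 0 higher, and scaling by library size only, under which the median of all genes was -0.18, called 20 lower. At an FDR under 0.05 with no fold threshold, 22 members were lower (48.9%, against 28.0% of all genes) and 1, Mki67, was higher, against 29.5% of all genes. In 31 of 45 members (68.9%), both HOXA9 OFF libraries lay below both uninduced libraries, against 38.9% of all genes. An unadjusted p under 0.05 was reached by 26 of the 45 members, against 62.0% of all genes.

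HOXA9 OFF replicate 2 had the lower level of the pair in all 45 members. The median log2 difference between the replicates was 0.39 over the members and 0.03 over all genes, of which 54.1% were higher in replicate 1. In the other groups, replicate 1 was the higher library in 17 members (CAF-1 OFF), 31 members (uninduced) and 38 members (IPTG control), with median log2 differences of -0.03, 0.06 and 0.08. The members' CPM summed to 7983 and 7676 in uninduced, 7975 and 7475 in IPTG control, 8584 and 8768 in CAF-1 OFF and 7045 and 5339 in HOXA9 OFF libraries. The 2 HOXA9 OFF libraries thus differed from each other in this sum by more than replicate 1 differed from either uninduced library. The DNA replication genes also differed between these libraries, with median log2 deviations from uninduced cells of -0.70 and -1.05, and the neutrophil marker sum was higher in replicate 1 while the macrophage sum was higher in replicate 2. Without HOXA9 OFF replicate 1, 21 members were called lower, and without replicate 2, 5 were called lower (Cdk1, Ccnb1, Cdc25c, Nek2 and Mad2l1) and 1, Mki67, higher. The median log2 fold change of the members was then -0.55 and -0.18.

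**Figure D2:**
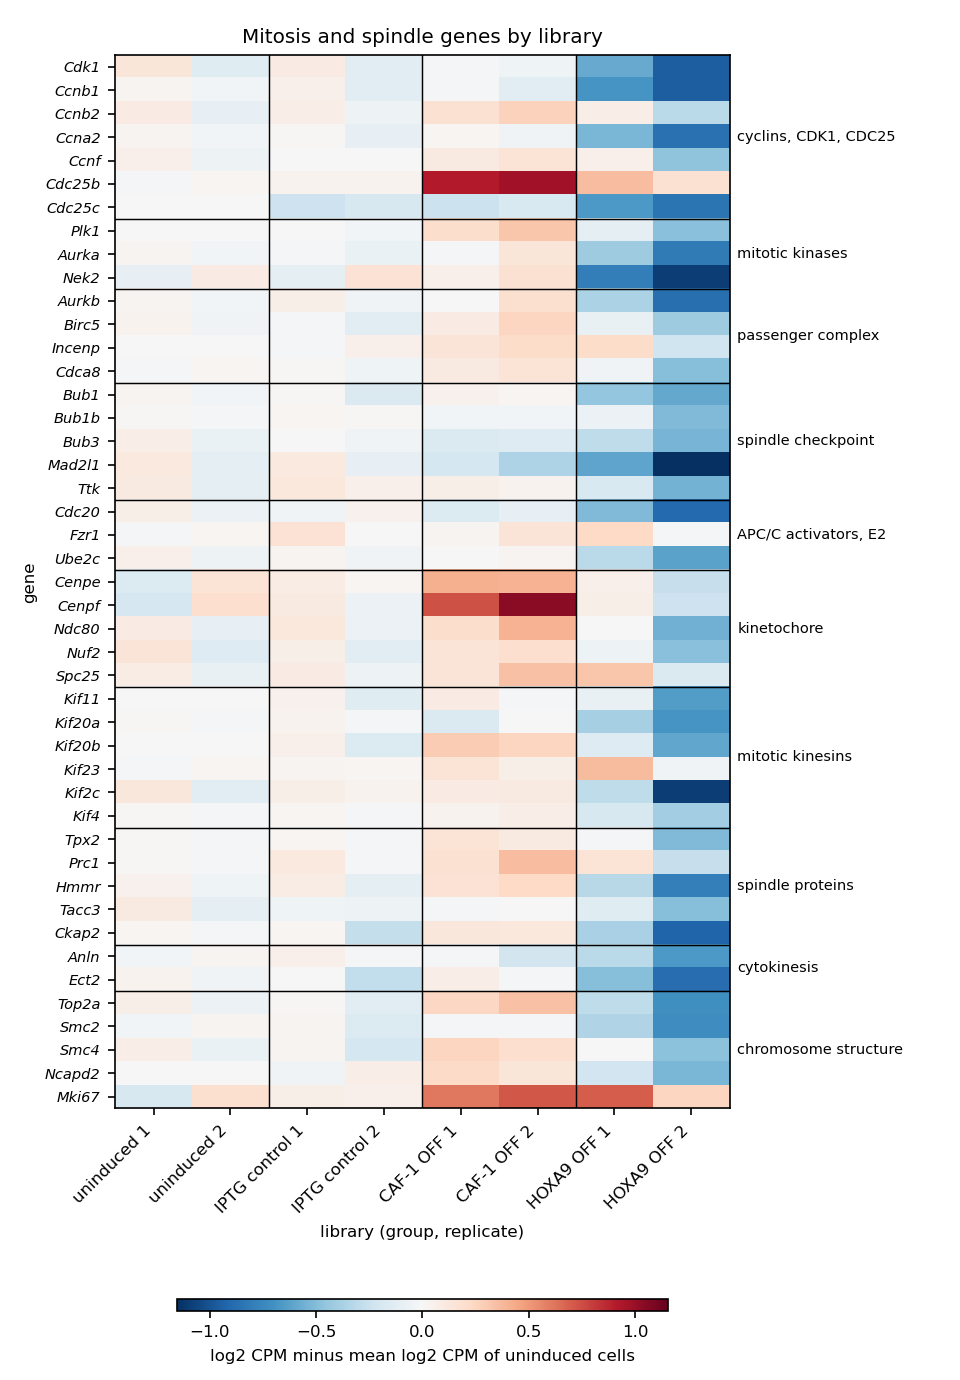
Each row is a member, ordered by role, and each column a library. The colour gives log2 CPM minus the mean log2 CPM of the 2 uninduced libraries. HOXA9 OFF replicate 2 is below replicate 1 in all 45 rows, and Cdc25b, Cenpf and Mki67 stand out as higher in both CAF-1 OFF libraries.

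Among CDK1, the cyclins and CDC25 phosphatases (7 members), 4 fell in HOXA9 OFF cells and 1 rose in CAF-1 OFF cells. Of all genes, 22.1% were called lower in HOXA9 OFF and 10.5% higher in CAF-1 OFF cells. Cdk1 encodes the kinase that starts mitosis (chromosome 10, positions 68799383 to 68815686, minus strand, mm9, protein-coding). It was at 253 and 208 CPM in uninduced, 245 and 209.8 CPM in IPTG control, 228 and 222 CPM in CAF-1 OFF and 153 and 118 CPM in HOXA9 OFF cells. Both HOXA9 OFF libraries were below all other libraries, and the fall was called (log2 fold change -0.76, SE 0.16, FDR 0.00408), while the difference of CAF-1 OFF from uninduced cells was small (-0.04, FDR 0.890). Ccnb1, the gene of cyclin B1 and main partner of CDK1 in mitosis (chromosome 13, positions 101548605 to 101556525, minus strand), was at 92.8 and 89.2 CPM in uninduced, 95.0 and 83.4 CPM in IPTG control, 89.6 and 83.0 CPM in CAF-1 OFF and 56.9 and 47.1 CPM in HOXA9 OFF cells. It fell in HOXA9 OFF cells (log2 fold change -0.81, SE 0.13, FDR 0.00102) and was at -0.08 in CAF-1 OFF cells (FDR 0.691). Ccna2, which encodes the cyclin of S phase and mitotic entry, and Cdc25c also fell (-0.69 and -0.75). The CDK1 partner gene Ccnb2 and Ccnf, whose product is a substrate receptor of a ubiquitin ligase, were not called (-0.11, FDR 0.553, and -0.18, FDR 0.360). Cdc25b, whose product activates CDK1 before mitosis (chromosome 2, positions 131012685 to 131024233, plus strand), went another way. Its level was 41.3 and 42.4 CPM in uninduced, 43.0 and 43.1 CPM in IPTG control, 78.9 and 82.0 CPM in CAF-1 OFF and 53.4 and 47.4 CPM in HOXA9 OFF cells. Both CAF-1 OFF libraries were the highest of all 8, and Cdc25b rose there against uninduced cells (log2 fold change 0.94, SE 0.10, FDR 0.00324) and against IPTG control cells (log2 fold change 0.90, SE 0.11, FDR 0.00436). The HOXA9 OFF libraries lay between, 0.27 above uninduced cells on the log2 scale (FDR 0.0589, not called), so the 2 phosphatase genes differed in sign in HOXA9 OFF cells. Cdc25b was called higher in CAF-1 OFF cells in every fit that left out 1 library. Ccna2 lost its call in HOXA9 OFF cells without HOXA9 OFF replicate 2, at -0.53.

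Of the 3 mitotic kinases, 2 fell in HOXA9 OFF cells, where 22.1% of all genes were called lower. In all 3, both HOXA9 OFF libraries were below both uninduced libraries, as in 38.9% of all genes. Nek2, which encodes a centrosome kinase (chromosome 1, positions 193645323 to 193656929, plus strand), had the lowest log2 fold change of all members in HOXA9 OFF cells. It was at 93.9 and 107 CPM in uninduced, 93.3 and 113 CPM in IPTG control, 104 and 113 CPM in CAF-1 OFF and 57.7 and 47.3 CPM in HOXA9 OFF cells. Both HOXA9 OFF libraries were below all others, and the fall was called (log2 fold change -0.94, SE 0.14, FDR 0.000981). Aurka, the gene of Aurora kinase A of the centrosome and spindle, fell too (log2 fold change -0.60, SE 0.14, FDR 0.00710), but was not called without HOXA9 OFF replicate 2 (-0.41) or without uninduced replicate 1 (-0.57), where the change was under 1.5-fold. Plk1, which encodes the Polo-like kinase that acts from mitotic entry to cytokinesis (chromosome 7, positions 129302951 to 129313389, plus strand), was at 139 and 138 CPM in uninduced, 138 and 136 CPM in IPTG control, 159 and 172 CPM in CAF-1 OFF and 128 and 98.8 CPM in HOXA9 OFF cells. Its HOXA9 OFF libraries were below and its CAF-1 OFF libraries above the other 4, without passing the test in either comparison (-0.29, FDR 0.0873, and 0.26, FDR 0.182).

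Of the 4 subunits of the chromosomal passenger complex, which corrects faulty attachments, 1 fell in HOXA9 OFF cells, beside 22.1% of all genes. This was Aurkb, the kinase subunit (chromosome 11, positions 68859149 to 68865166, plus strand), at 161 and 154 CPM in uninduced, 166 and 153 CPM in IPTG control, 158 and 179 CPM in CAF-1 OFF and 122 and 86.0 CPM in HOXA9 OFF cells. Both HOXA9 OFF libraries were the lowest and far from each other. The change stood just past 1.5-fold (log2 fold change -0.60, SE 0.16, FDR 0.0150), and was not called without HOXA9 OFF replicate 2 (-0.36), without uninduced replicate 1 (-0.57) or by DESeq2 (-0.58) or with its size factors (-0.58). The scaffold gene Incenp was at 239.5 and 240.4 CPM in uninduced, 237 and 250.5 CPM in IPTG control, 266 and 279 CPM in CAF-1 OFF and 277 and 204 CPM in HOXA9 OFF cells. Its HOXA9 OFF libraries lay on both sides of the uninduced ones, with a log2 fold change of 0.01 whose sign turned in 6 alternatives. Birc5 (survivin) and Cdca8 (borealin) were not called (-0.24 and -0.25). In CAF-1 OFF cells the 4 log2 fold changes were 0.10 to 0.18, none called.

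Of the 5 spindle assembly checkpoint genes, 1 was called lower in HOXA9 OFF cells, near the 22.1% of all genes called lower. In all 5, both HOXA9 OFF libraries were below both uninduced libraries, as in 38.9% of all genes. Mad2l1 encodes MAD2, which binds and inhibits CDC20 (chromosome 6, positions 66485384 to 66491027, plus strand), and was at 170.2 and 145 CPM in uninduced, 170.0 and 147 CPM in IPTG control, 136 and 122 CPM in CAF-1 OFF and 103 and 70.5 CPM in HOXA9 OFF cells. Both HOXA9 OFF libraries were below both CAF-1 OFF libraries, which in turn were below the 4 control libraries. The fall in HOXA9 OFF cells was called (log2 fold change -0.86, SE 0.18, FDR 0.00489) in every fit that left out 1 library, and the CAF-1 OFF difference was not (-0.28, FDR 0.299). Bub1, a checkpoint kinase gene (chromosome 2, positions 127626858 to 127657601, minus strand), was at 154 and 148 CPM in uninduced, 152 and 135 CPM in IPTG control, 157 and 154 CPM in CAF-1 OFF and 111 and 101 CPM in HOXA9 OFF cells. It was below all other libraries in both HOXA9 OFF libraries, and passed the FDR but not the fold threshold (log2 fold change -0.52, SE 0.10, FDR 0.00302); without HOXA9 OFF replicate 1 it was called (-0.59). Bub1b, which encodes the BUBR1 subunit of the checkpoint complex, was at 185 and 182 CPM in uninduced, 186 and 185 CPM in IPTG control, 179.6 and 179.7 CPM in CAF-1 OFF and 176 and 129 CPM in HOXA9 OFF cells. Its HOXA9 OFF replicate 1 was close to the other groups (-0.27, FDR 0.133). Bub3 and Ttk, the gene of the kinase MPS1, had log2 fold changes of -0.41 and -0.35 (FDR 0.0140 and 0.0707).

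Of the activators of the anaphase-promoting complex, Cdc20 was called lower in HOXA9 OFF cells and Fzr1 was not, and their difference was not tested. Cdc20, which activates it at anaphase (chromosome 4, positions 118105506 to 118109957, minus strand), was at 185 and 168 CPM in uninduced, 171 and 182 CPM in IPTG control, 157 and 165 CPM in CAF-1 OFF and 124 and 94.6 CPM in HOXA9 OFF cells. It fell in HOXA9 OFF cells (log2 fold change -0.69, SE 0.14, FDR 0.00339), and without HOXA9 OFF replicate 2 it was not called (-0.51). Fzr1 encodes CDH1, which activates the complex in late mitosis and G1 (chromosome 10, positions 80828967 to 80841261, minus strand), and was at 78.5 and 80.8 CPM in uninduced, 89.7 and 79.7 CPM in IPTG control, 81.4 and 88.3 CPM in CAF-1 OFF and 93.5 and 79.0 CPM in HOXA9 OFF cells. All 8 libraries overlapped in a narrow range, with log2 fold changes of 0.12 in HOXA9 OFF and 0.09 in CAF-1 OFF cells (FDR 0.433 and 0.611); the former turned negative without HOXA9 OFF replicate 1 and with scaling by library size only. Ube2c, the ubiquitin-conjugating enzyme gene of the complex, was lower in HOXA9 OFF cells by less than 1.5-fold (-0.46, FDR 0.0120).

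None of the 5 kinetochore genes passed the FDR in HOXA9 OFF cells. An unadjusted edgeR p under 0.05 was reached there by 0 of the 5, against 62.0% of all genes. In CAF-1 OFF cells 1 rose, where 10.5% of all genes were called higher. Both CAF-1 OFF libraries were above both uninduced libraries in all 5, as in 35.3% of all genes. Cenpf, which encodes a large kinetochore and nuclear matrix protein (chromosome 1, positions 191464478 to 191511965, minus strand), was at 77.5 and 102 CPM in uninduced, 95.3 and 84.8 CPM in IPTG control, 148 and 183 CPM in CAF-1 OFF and 93.0 and 75.2 CPM in HOXA9 OFF cells. Both CAF-1 OFF libraries were above all other libraries, and Cenpf rose against uninduced (log2 fold change 0.88, SE 0.18, FDR 0.0164) and IPTG control cells (log2 fold change 0.88, SE 0.18, FDR 0.0184). The HOXA9 OFF libraries overlapped the uninduced ones (-0.09, FDR 0.673). The rise was not called without CAF-1 OFF replicate 2 (0.72, FDR 0.124) or without uninduced replicate 1 (0.70, FDR 0.106). Against IPTG control cells it was not called without CAF-1 OFF replicate 2 (0.72) or without either IPTG control library (0.94 and 0.79). Cenpe, the gene of a kinetochore kinesin, was next in CAF-1 OFF cells and not called (0.40, FDR 0.0836). Nuf2, of the NDC80 complex that binds microtubules, was at 124 and 101 CPM in uninduced, 118 and 102 CPM in IPTG control, 124 and 128 CPM in CAF-1 OFF and 108 and 80.1 CPM in HOXA9 OFF cells (-0.26, FDR 0.204 in HOXA9 OFF cells). Spc25, of the same complex, was at 60.6 and 54.0 CPM in uninduced, 61.3 and 55.1 CPM in IPTG control, 63.4 and 72.5 CPM in CAF-1 OFF and 71.4 and 50.9 CPM in HOXA9 OFF cells. Its HOXA9 OFF libraries lay on both sides of the uninduced ones (0.09, FDR 0.668), and the sign turned without HOXA9 OFF replicate 1 (-0.17). Ndc80 was at -0.25 in HOXA9 OFF and 0.30 in CAF-1 OFF cells, neither called.

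**Figure D3:**
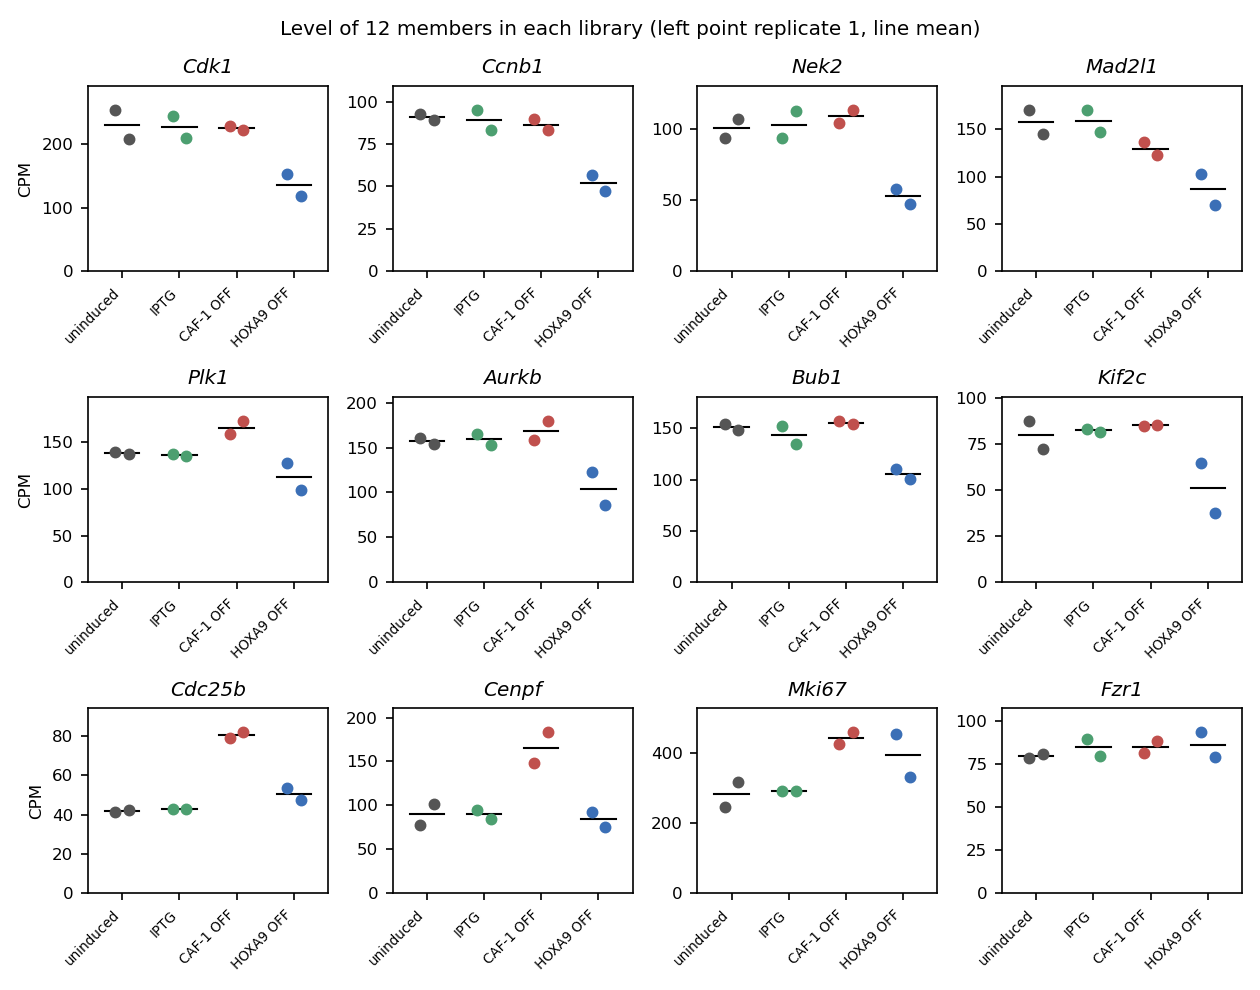
Level in CPM (vertical axis, from 0) of 12 members in the 8 libraries, by group; the left point of a pair is replicate 1 and the line the mean of 2 libraries. Cdk1, Ccnb1, Nek2 and Mad2l1 are lowest in HOXA9 OFF cells, Cdc25b (78.9 and 82.0 CPM) and Cenpf (148 and 183 CPM) are highest in CAF-1 OFF cells, and Fzr1 stays between 78.5 and 93.5 CPM in all libraries.

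Of the 6 mitotic kinesins, 1 fell in HOXA9 OFF cells, beside 22.1% of all genes. Kif2c encodes a motor that shortens microtubules at kinetochores (chromosome 4, positions 116832244 to 116855244, minus strand), and was at 87.5 and 72.6 CPM in uninduced, 83.4 and 81.8 CPM in IPTG control, 85.1 and 85.5 CPM in CAF-1 OFF and 64.8 and 37.5 CPM in HOXA9 OFF cells. Its HOXA9 OFF libraries differed from each other by the largest ratio of all members, 1.73. The fall was called (log2 fold change -0.65, SE 0.23, FDR 0.0429) but not without HOXA9 OFF replicate 2 (-0.30), nor without uninduced replicate 1 (-0.51) or 2 (-0.78, FDR 0.0655), nor in a fit of only the groups compared (FDR 0.0992). Kif11, the motor that pushes spindle poles apart (chromosome 19, positions 37450893 to 37496349, plus strand), was at 339 and 335 CPM in uninduced, 349.8 and 307 CPM in IPTG control, 360.2 and 335 CPM in CAF-1 OFF and 317 and 216 CPM in HOXA9 OFF cells. It was not called (log2 fold change -0.34, SE 0.17, FDR 0.133), and its HOXA9 OFF replicate 1 was within the range of the IPTG control libraries; without that library it was called (-0.64). Kif23, a motor of the central spindle in cytokinesis, was at 74.9 and 77.2 CPM in uninduced, 77.6 and 77.3 CPM in IPTG control, 84.6 and 79.8 CPM in CAF-1 OFF and 98.2 and 74.1 CPM in HOXA9 OFF cells, with HOXA9 OFF replicate 1 the highest and replicate 2 the lowest of all (0.18, FDR 0.294). Kif20a and Kif4 passed the FDR with smaller changes (-0.53 and -0.29), and Kif20b did not (-0.36, FDR 0.0773).

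Among the spindle-associated proteins (5 members), Ckap2, which encodes a microtubule-stabilizing protein (chromosome 8, positions 23278624 to 23296291, minus strand), fell. It was at 44.6 and 43.0 CPM in uninduced, 44.5 and 36.2 CPM in IPTG control, 48.0 and 47.6 CPM in CAF-1 OFF and 33.8 and 23.1 CPM in HOXA9 OFF cells. Its HOXA9 OFF libraries were the lowest, replicate 1 by a small margin (log2 fold change -0.63, SE 0.19, FDR 0.0222), and the call was lost without HOXA9 OFF replicate 2 (-0.37) or without uninduced replicate 1 (-0.60, FDR 0.0889) or 2 (-0.65, FDR 0.0686), or in a fit of only the groups compared (FDR 0.0534). Prc1, which bundles microtubules of the central spindle, was at 122 and 119 CPM in uninduced, 130.1 and 118 CPM in IPTG control, 136 and 154 CPM in CAF-1 OFF and 134 and 100.1 CPM in HOXA9 OFF cells. Its HOXA9 OFF libraries lay on both sides of the uninduced ones (-0.04, FDR 0.836), and the sign turned without replicate 2 (0.16). Hmmr, a spindle protein gene, passed the FDR with less than 1.5-fold (-0.54, FDR 0.0180), while Tpx2, whose product activates Aurora A, and Tacc3, a spindle microtubule protein gene, did not (-0.24 and -0.31).

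Both cytokinesis genes were below uninduced cells in both HOXA9 OFF libraries, as were 38.9% of all genes. Ect2, the exchange factor that activates RhoA at the cleavage furrow (chromosome 3, positions 26996144 to 27052800, minus strand), was at 139 and 131 CPM in uninduced, 134 and 111 CPM in IPTG control, 142 and 134 CPM in CAF-1 OFF and 95.8 and 73.3 CPM in HOXA9 OFF cells. It fell in HOXA9 OFF cells (log2 fold change -0.67, SE 0.15, FDR 0.00615), and not without HOXA9 OFF replicate 2 (-0.49, under 1.5-fold). Anln encodes anillin, the scaffold of the contractile ring, and was at 134 and 139 CPM in uninduced, 142 and 134 CPM in IPTG control, 135 and 117 CPM in CAF-1 OFF and 109.9 and 86.2 CPM in HOXA9 OFF cells. Anln did not reach the fold threshold (log2 fold change -0.48, SE 0.13, FDR 0.0167); it did without HOXA9 OFF replicate 1 (-0.66) and with scaling by library size only (-0.67).

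Chromosome structure genes held both the member with the highest CPM and the 1 member above uninduced cells at the FDR in HOXA9 OFF cells. Top2a, the topoisomerase that untangles sister chromatids (chromosome 11, positions 98854257 to 98885503, minus strand), was at 922 and 839.7 CPM in uninduced, 889 and 802 CPM in IPTG control, 1038 and 1112 CPM in CAF-1 OFF and 718 and 539 CPM in HOXA9 OFF cells. HOXA9 OFF was lowest and CAF-1 OFF highest, and neither was called (log2 fold change -0.49, SE 0.15, FDR 0.0258; log2 fold change 0.29, SE 0.15, FDR 0.212); without HOXA9 OFF replicate 1, Top2a was called lower (-0.71). Smc2, a core subunit of condensin, was at 288 and 300.4 CPM in uninduced, 301 and 264 CPM in IPTG control, 289.9 and 289.6 CPM in CAF-1 OFF and 231 and 179 CPM in HOXA9 OFF cells. It passed the FDR in HOXA9 OFF cells but not the fold threshold (log2 fold change -0.52, SE 0.14, FDR 0.0122), and was called without HOXA9 OFF replicate 1 (-0.71). The other condensin genes Smc4 and Ncapd2 had log2 fold changes of -0.22 and -0.37 there. Mki67, which encodes the proliferation marker Ki-67 that coats mitotic chromosomes (chromosome 7, positions 142881471 to 142908062, minus strand), was at 245 and 317 CPM in uninduced, 292 and 290.3 CPM in IPTG control, 425 and 458 CPM in CAF-1 OFF and 453 and 331 CPM in HOXA9 OFF cells. Both CAF-1 OFF libraries and both HOXA9 OFF libraries were above all 4 controls. Mki67 rose in CAF-1 OFF against uninduced cells (log2 fold change 0.65, SE 0.18, FDR 0.0374), missed the FDR against IPTG control cells (log2 fold change 0.60, SE 0.18, FDR 0.0521) and passed the FDR but not the fold threshold in HOXA9 OFF cells (log2 fold change 0.48, SE 0.18, FDR 0.0468). The call in CAF-1 OFF cells was lost when any of the 4 libraries was left out, at log2 fold changes of 0.47 (without uninduced replicate 1), 0.85 (without uninduced replicate 2), 0.68 (without CAF-1 OFF replicate 1) and 0.60 (without CAF-1 OFF replicate 2). In HOXA9 OFF cells Mki67 was called higher without HOXA9 OFF replicate 2 (0.69) or without uninduced replicate 2 (0.68).

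In CAF-1 OFF cells as a whole, 3 of 45 members rose and 0 fell against uninduced cells, and 2 rose and 0 fell against IPTG control cells. The 3 were Cdc25b, Cenpf and Mki67, and the 2 were Cdc25b and Cenpf. Among all genes tested, 10.5% were called higher and 3.5% lower against uninduced cells, and 9.56% and 3.2% against IPTG control cells, so the members' 6.67% and 4.44% called higher did not stand above the rest. DESeq2 called 3 members higher and 0 lower in each of these comparisons, and an unadjusted p under 0.05 was reached by 4 of 45 members in each, against 36.8% of all genes beside uninduced and 35.4% beside IPTG control cells. The median log2 fold change was 0.11 in both, beside 0.01 over all genes. Both CAF-1 OFF libraries were above both uninduced libraries in 24 members, a share of 53.3% where all genes had 35.3%, and below them in 5 (Cdc25c, Bub1b, Bub3, Mad2l1 and Cdc20), a share of 11.1% where all genes had 33.0%. Below the called members, Cenpe (0.40), Ndc80 (0.30) and Top2a (0.29) had the next highest log2 fold changes, and Mad2l1 the lowest (-0.28). Without uninduced replicate 1 or without CAF-1 OFF replicate 2, 1 member was called, Cdc25b.

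**Figure D4:**
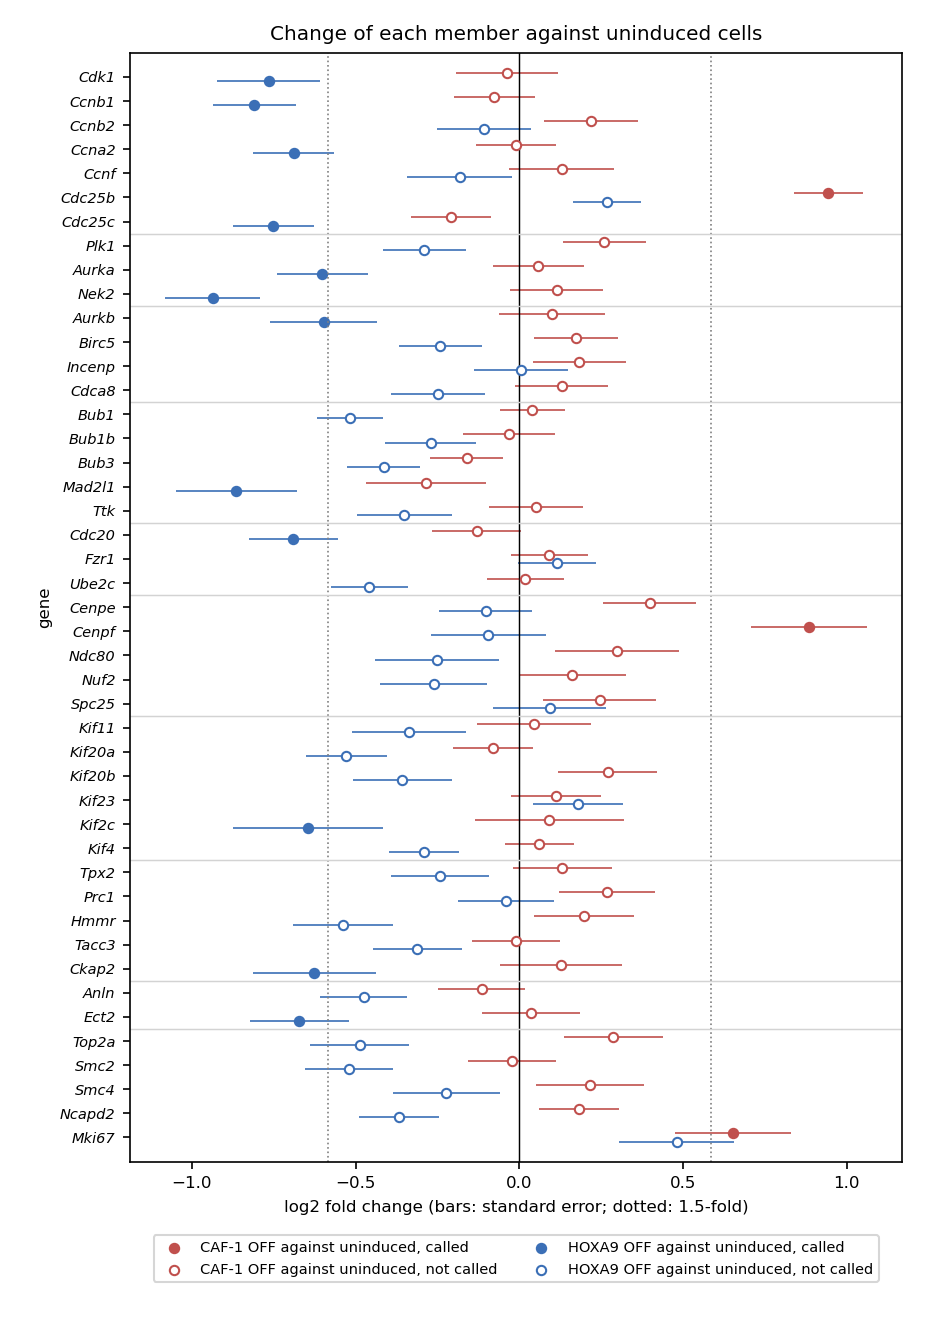
Log2 fold change (horizontal axis) of each member in the CAF-1 OFF and the HOXA9 OFF condition, each against the same uninduced libraries; bars are standard errors, filled points were called and dotted lines mark 1.5-fold. In HOXA9 OFF cells 12 members are called, all lower, and in CAF-1 OFF cells 3 are called, all higher.

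Because both treatments were set against the same uninduced libraries, they were compared with each other directly. Of 45 members, 14 were higher and 0 lower in CAF-1 OFF than in HOXA9 OFF cells (31.1% higher), against 22.2% of all genes called higher and 21.4% called lower. The median log2 fold change was 0.50, beside 0.04 over all genes. The 14 were Nek2 (1.05), Cenpf (0.98), Top2a (0.77), Ckap2 (0.75), Kif2c (0.74), Hmmr (0.74), Ccnb1 (0.73), Cdk1 (0.73), Ect2 (0.71), Aurkb (0.70), Ccna2 (0.68), Cdc25b (0.68), Aurka (0.66) and Kif20b (0.63). At an FDR under 0.05 with no fold threshold, 28 of 45 members were higher and 0 lower, against 27.9% and 26.6% of all genes. Both CAF-1 OFF libraries lay above both HOXA9 OFF libraries in 40 of 45 members (88.9%), against 40.8% of all genes. DESeq2 called 14 higher and 0 lower, and scaling by library size only, under which the median of all genes was 0.27, called 34 higher. By edgeR, 33 of 45 members reached an unadjusted p under 0.05, against 59.9% of all genes. Fzr1 (-0.02), Kif23 (-0.07), Spc25 (0.15), Mki67 (0.17) and Incenp (0.18) had the smallest differences, all with an FDR of 0.322 or more. Without HOXA9 OFF replicate 1, 32 members were called higher, and without HOXA9 OFF replicate 2, 3 were (Ccnb1, Nek2 and Cenpf), with a median of 0.32.

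In IPTG control cells the members stayed near the uninduced level. Between IPTG control and uninduced cells edgeR and DESeq2 called 0 members (0.0% of all genes were called by edgeR), and 0 members and 100 of all genes (0.765%) reached an unadjusted p under 0.05. The members' median log2 fold change was 0.00 (0.002 with 3 decimals), with a range from -0.21 in Cdc25c to 0.09 in Fzr1.

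Levels between genes can be set side by side only per length, here CPM per kilobase of the longest annotated transcript, which for some genes may not be the main one. In uninduced cells the highest were Top2a (169 ± 11.2, SD, n = 2), Bub3 (129.5 ± 9.79) and Ccnb2 (112 ± 10.8). The lowest were Cenpf (8.06 ± 1.55), Cenpe (12.1 ± 1.83) and Cdc25b (13.5 ± 0.260). Cdk1 stood at 79.9 ± 11.1 and Ccnb1 at 36.6 ± 1.01 on this scale. The genes called higher in CAF-1 OFF cells were thus among the lower levels per kilobase, with Mki67 at 27.9 ± 5.04.

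The rest of the mitotic machinery was read from 93 further genes, of which 90 were tested. In HOXA9 OFF cells 30 fell (33.3%, against 22.1% of all genes) and 1 rose (1.11%, against 25.2%), with a median log2 fold change of -0.31 against uninduced cells. The lowest were Cenpn (-1.41), Trip13 (-1.31) and Cks1b (-1.23), and the highest Haus8 (0.69, called), Nipbl (0.46) and Stag2 (0.46), the last 2 under 1.5-fold. Cenpn encodes a centromere protein and Cks1b a small CDK-binding subunit. In CAF-1 OFF cells 2 rose and 2 fell (2.22% each, against 10.5% and 3.5% of all genes): the condensin II gene Ncapd3 (1.10, FDR 0.00796) and the spindle gene Dlgap5 (0.75, FDR 0.0292) rose, and the kinetochore gene Pmf1 (-0.92, FDR 0.00743) and Cdc26 of the anaphase-promoting complex (-0.61, FDR 0.0193) fell. None of the 4 was called in CAF-1 OFF cells without CAF-1 OFF replicate 2 or without uninduced replicate 1. Set against HOXA9 OFF directly, CAF-1 OFF cells had 30 of these genes called higher (33.3%, against 22.2% of all genes) and 1 lower (1.11%, against 21.4%).

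Of 20 genes for the transcription factors that act on mitotic promoters, the E2F and RB families and the MuvB complexes, 6 fell and 3 rose in HOXA9 OFF cells, beside 22.1% and 25.2% of all genes, which is no result about a list of this size. E2f5 (-1.53), Mybl2 (-1.51) and E2f4 (-0.92) had the lowest log2 fold changes, and E2f2 (2.05), Rb1 (1.36) and Rbl2 (0.74) the highest, all called. MYBL2 joins the MuvB complex as an activator of mitotic genes, and was at 95.4 and 92.4 CPM in uninduced, 90.4 and 99.1 CPM in IPTG control, 103 and 98.5 CPM in CAF-1 OFF and 37.6 and 28.4 CPM in HOXA9 OFF cells. Foxm1, its partner activator and named here after its values were seen, was at 90.3 and 83.0 CPM in uninduced, 94.5 and 90.3 CPM in IPTG control, 100.4 and 109 CPM in CAF-1 OFF and 96.8 and 77.3 CPM in HOXA9 OFF cells, with no call (0.01, FDR 0.969, and 0.27, FDR 0.164). In CAF-1 OFF cells 4 rose and 0 fell, beside 10.5% and 3.5% of all genes: E2f2 (1.5), E2f7 (1.03), E2f8 (0.79) and Rb1 (0.67). Without uninduced replicate 1, 0 of these were called, and without uninduced replicate 2 or CAF-1 OFF replicate 2, 1 was. Against HOXA9 OFF, 4 were higher and 1 was lower in the CAF-1 OFF libraries.

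The DNA replication genes are given only to be set beside the members, as another list of cell cycle genes. In HOXA9 OFF cells 27 of 38 fell (71.1%, against 22.1% of all genes) and 0 rose, with a median log2 fold change of -0.81, beside -0.35 for the members. Orc1 (-1.54), Gins2 (-1.47) and Tyms (-1.35) were lowest, and Gins4 (-0.28) and Rfc1 (0.10) were among the highest and not called. In CAF-1 OFF cells 0 of 38 were called by edgeR and 0 by DESeq2, where edgeR called 10.5% of all genes higher and 3.5% lower. An unadjusted edgeR p under 0.05 was reached by 8 of the 38, against 36.8% of all genes. The median was -0.17, on the other side of 0 from the members' 0.11. Between the treatments, 22 were called higher with CAF-1 OFF (57.9%, against 22.2% of all genes) and 0 lower, against 21.4%. The difference between the 2 lists was not tested.

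**Figure D5:**
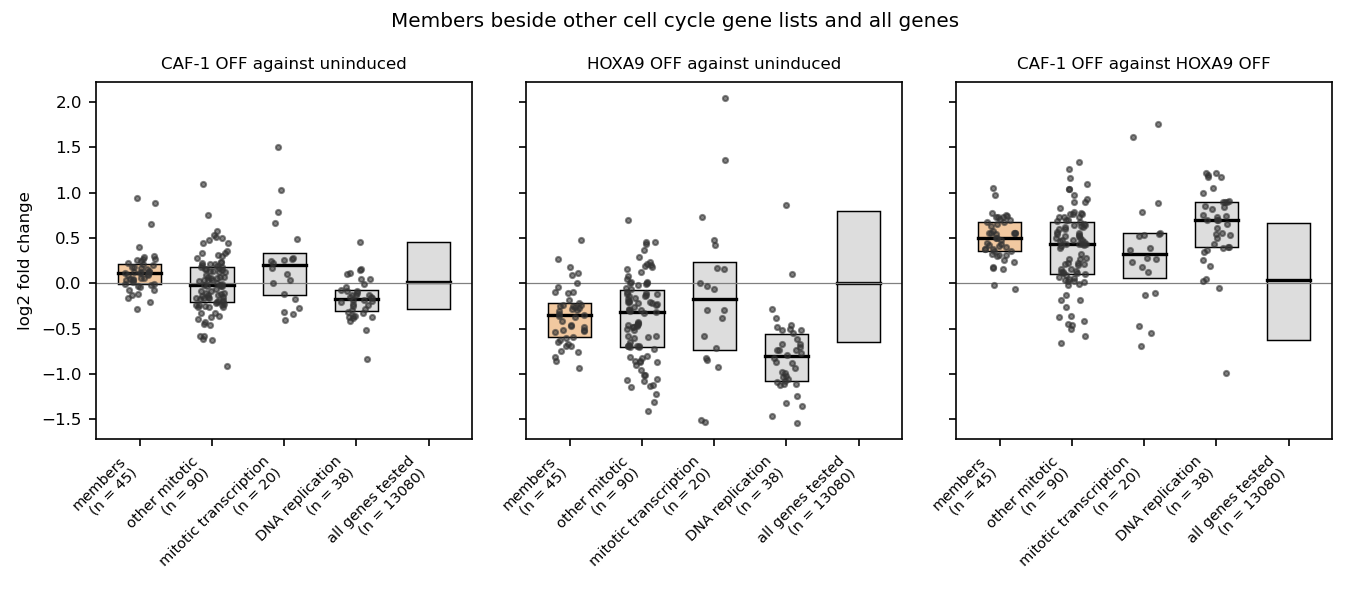
Log2 fold changes (vertical axis) of the members and of the other cell cycle lists in CAF-1 OFF and in HOXA9 OFF cells against uninduced cells, and between the treatments (CAF-1 OFF against HOXA9 OFF); points are genes, boxes span the quartiles and lines are medians, and for all 13080 genes the box alone is drawn. In HOXA9 OFF cells the median is -0.35 for the members and -0.81 for DNA replication genes, and in CAF-1 OFF cells 0.11 and -0.17.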

How the data were processed

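RNA-seq libraries had been made by the study from total RNA with a directional kit from NEB and aligned to mm9 with STAR, and reads were counted per gene with HTSeq, as the study's methods and processing notes state. The authors deposited raw counts per gene in 1 file for each of the 8 libraries; strand and annotation version of the counting are not given in the sources used here. The 5 HTSeq summary rows were left out of library sizes. Counts of 34199 genes were filtered with filterByExpr, scaled by TMM and fitted by the edgeR quasi-likelihood test (edgeR 4.0.16, R 4.3.3) over all 8 libraries, which share 1 estimate of the spread, with Benjamini-Hochberg adjustment over 13080 genes (FDR). Genes were called at an FDR under 0.05 with a 1.5-fold change or more. The biological coefficient of variation was 18.9%. CPM are counts scaled to TMM-adjusted library size, and log2 CPM have a prior count of 2. Library depth is 14044284 to 22423837 counts, at which 3 counts are 0.128 to 0.212 CPM. This covers counting error only.

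The members and all gene lists were chosen with earlier results of these data known. All 45 members are named, and levels per library are given for Cdk1, Ccnb1, Plk1, Aurkb, Bub1, Fzr1, Kif11, Top2a and Mki67, for the lowest and the highest member of each role group in HOXA9 OFF cells and for members called in CAF-1 OFF cells. For the other lists the 3 lowest and the 3 highest in HOXA9 OFF cells and those called in CAF-1 OFF cells are named, except 1 gene that is not reported here. Gene positions and transcript lengths come from GENCODE vM1 on mm9, and promoter windows from RefSeq on GRCm38.p6; tables and figures were made with Python 3.11.15 (pandas 2.3.3, matplotlib 3.10.9).

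Alternatives were DESeq2 1.42.0, DESeq2 size factors, library size only, no filter, a mean of at least 50 counts, other thresholds, a replicate block, only the groups compared and each library left out in turn; a group then left with 1 library is assumed to vary like the others. The fit was tested on simulated data: for HOXA9 OFF against uninduced cells, with 200 of 12137 genes changed, it called 89% of those changed by 2 on the log2 scale and 53% of those changed by 1, with 0 in the wrong direction and 9 unchanged genes called. Changes smaller than 1 were not simulated, while the members' changes in HOXA9 OFF cells were -0.94 to 0.48. In the real comparison 22.1% of genes were called lower and 25.2% higher. The simulation therefore gives no rate for changes of the members' size, nor for scaling where so many genes change.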

Additional observations from a re-analysis of the deposited data

How the results depend on the processing

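Of the alternatives for single named members, 467 kept direction and side of the threshold, 44 lost a call, 15 gained one and 13 turned the sign. The 13 were all values near 0 in HOXA9 OFF against uninduced cells, of genes that were not called. With library size only, Fzr1 was at -0.077, Kif23 at -0.013 and Spc25 at -0.10; with 1 library left out at a time, Fzr1 ranged from -0.012 to 0.23, Kif23 from -0.0375 to 0.37 and Spc25 from -0.17 to 0.32, the negative values without HOXA9 OFF replicate 1. Incenp was at -0.19 with library size only, -0.023 with no filter, -0.013 with only the groups compared, -0.0003 with the replicate block, -0.0014 without uninduced replicate 1, and -0.23 to 0.21 over the libraries left out. Prc1 ranged from -0.27 to 0.16, the latter without HOXA9 OFF replicate 2. Scaling by library size only moved the median of all genes to -0.18 in HOXA9 OFF and 0.05 in CAF-1 OFF against uninduced cells, with the members at -0.54 and 0.15, and to 0.27 in CAF-1 OFF against HOXA9 OFF cells, with the members at 0.73. It called 20 members in HOXA9 OFF cells and 34 in the direct comparison, where it called 51 other mitotic genes and 10 transcription genes. With an FDR under 0.01 and 2-fold, 0 members were called in CAF-1 OFF cells against either control, 0 in HOXA9 OFF cells and 1 in the direct comparison; of other mitotic genes 1, 1, 11 and 6 were called in the same order, of transcription genes 1, 1, 4 and 2, and of replication genes 13 in HOXA9 OFF cells and 7 in the direct comparison. With no fold threshold, 23 members were called in HOXA9 OFF cells and 28 in the direct comparison, other mitotic genes numbered 13, 9, 48 and 53 in the same order, 10 transcription genes were called in the direct comparison and 1 replication gene in CAF-1 OFF against uninduced cells. With only the groups compared, 10 of the 12 members called in HOXA9 OFF cells were kept (Kif2c and Ckap2 were lost), and with DESeq2 size factors 11 (Aurkb was lost). With only the groups compared, and likewise with the replicate block, 1 replication gene was called in CAF-1 OFF cells against either control. Same-numbered libraries correlated in their deviations at 0.48 for uninduced and IPTG control, 0.30 for uninduced and HOXA9 OFF and 0.32 for IPTG control and HOXA9 OFF, but at -0.044, -0.017 and 0.076 for CAF-1 OFF with uninduced, IPTG control and HOXA9 OFF. The numbers thus went together in 3 groups and not with CAF-1 OFF, and the labels do not say what they mark. With the replicate block the members called were 3, 2, 12, 15 and 0 in CAF-1 OFF against uninduced and IPTG control, HOXA9 OFF against uninduced, CAF-1 OFF against HOXA9 OFF, and IPTG control against uninduced cells. Leaving out 1 library at a time, the members called numbered 1 to 2, 1 to 2, 6 to 21, 3 to 32 and 0 in these comparisons. Other mitotic genes numbered 0 to 4, 0 to 4, 24 to 43 and 17 to 48, transcription genes 0 to 3, 1 to 3, 9 to 11 and 5 to 10, and replication genes 0, 0, 22 to 34 and 14 to 30. The members' median was then 0.066 to 0.13 in CAF-1 OFF and -0.0545 to 0.029 in IPTG control cells against uninduced cells, and -0.55 to -0.18 in HOXA9 OFF cells.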
